A study of Mus musculus with 6 samples.

Results

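The 9 genes described here, Bax, Bak1, Bcl2, Bcl2l1, Bcl2l2, Casp8, Casp9, Fas and Trp53, belong to the apoptosis machinery of germ cells. They were taken by symbol from a table of 54532 genes measured in mouse testis, and all 9 were found. The table gives FPKM, the fragments of a gene scaled by its length and by the size of the library, for 1 testis library of each of 6 male C57BL/6 recipients of fecal microbiota transplantation (FMT). The alcohol-FMT group held mice 18, 24 and 31, whose donors had drunk 10% ethanol, for 8 weeks by the sample records and for 10 weeks by the methods. The control-FMT group held mice 16, 19 and 21, whose donors were control mice. All recipients arrived at 3 weeks of age and were gavaged 3 times a week for 10 weeks with suspended donor stool, which was prepared from 5 donors of each group. The recipients were not treated with antibiotics before FMT. The study also stained spermatocytes for DNA breaks of apoptosis, and reported more staining in alcohol-FMT mice, a difference that was not statistically significant. The question put to the libraries was whether the transcripts of the genes that carry out apoptosis differed between the groups.

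Apoptosis in the testis removes surplus and damaged germ cells, and it goes on in the healthy organ as well as after heat, toxins or withdrawal of hormones. In the mitochondrial pathway, BAX and BAK1 open pores in the outer mitochondrial membrane, BCL2, BCL2L1 (BCL-XL) and BCL2L2 (BCL-W) hold them in check, and cytochrome c set free through the pores activates caspase-9. In the death receptor pathway, FAS on the cell surface recruits and activates caspase-8, and p53, the product of Trp53, can raise the transcription of genes of both pathways after DNA damage. Much of this control acts on proteins, by binding, relocation and cleavage, and transcript levels do not show it.

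Between 16504096 and 18633124 fragments fell in genes in each library. The test, limma on log2(FPKM + 1) with p-values adjusted by Benjamini-Hochberg, took in the 15206 genes that reached an average of 1 FPKM, and 0 of them passed an adjusted p of 0.05. At an unadjusted p up to 0.05, the test called 1106 genes, 750 higher and 356 lower in alcohol-FMT testis, and with FPKM rescaled to library totals it called 449 higher and 515 lower. Fold changes are differences of log2(FPKM + 1), a scale on which the change of a low gene looks smaller than it is. Leaving out the library of alcohol-FMT mouse 18 raised the calls at an unadjusted p up to 0.05 to 17.7% of the genes tested, against 7.27% with it, and values without this mouse are given beside the genes concerned. Its meiotic axis genes were high: Sycp1, a synaptonemal complex gene of spermatocytes, had 70.4, 47.8 and 43.1 FPKM in alcohol-FMT mice 18, 24 and 31, against 49.6, 61.6 and 62.7 FPKM in control-FMT mice 16, 19 and 21. The markers of each germ cell stage did not move together in it, as set out below for spermatocytes and elongating spermatids. Of 8 spermatogonial markers, 5 were highest and 3 lowest in mouse 18. Of 7 round spermatid markers, 3 were highest and 2 lowest there.

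Most of the 9 genes were transcribed at low levels in these testes, and none was called different between the groups. Bcl2l1 stood above the other 8 in every library, at 25.4 FPKM over all 6, and Bcl2 was the lowest, at a group mean of 0.0862 FPKM in alcohol-FMT and 0.114 FPKM in control-FMT testis. To show the genes at the ends of this order, and Bax as the partner of both, the 250 bases before their RefSeq transcription start in build GRCm38.p6 are given 5′ to 3′ on the strand of the gene. Capitals mark GGGCGG, the GC box, on either strand. The CCAAT box, the TATAAA box and TGACGTCA, the cyclic AMP response element, were also searched on both strands and are not in these 3 windows.
Bcl2l1, most upstream start, chr2:152831729-152831978, minus strand: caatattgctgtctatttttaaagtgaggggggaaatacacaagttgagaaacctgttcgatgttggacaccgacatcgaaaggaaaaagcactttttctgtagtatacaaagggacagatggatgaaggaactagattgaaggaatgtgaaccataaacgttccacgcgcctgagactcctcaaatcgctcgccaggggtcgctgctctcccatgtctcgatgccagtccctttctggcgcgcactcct
Bcl2, chr1:106714291-106714540, minus strand: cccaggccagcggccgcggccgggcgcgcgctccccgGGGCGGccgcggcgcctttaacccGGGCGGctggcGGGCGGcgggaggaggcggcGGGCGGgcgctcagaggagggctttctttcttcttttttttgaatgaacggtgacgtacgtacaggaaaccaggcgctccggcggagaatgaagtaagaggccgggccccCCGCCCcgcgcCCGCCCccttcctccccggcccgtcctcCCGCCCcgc
Bax, chr7:45466899-45467148, minus strand: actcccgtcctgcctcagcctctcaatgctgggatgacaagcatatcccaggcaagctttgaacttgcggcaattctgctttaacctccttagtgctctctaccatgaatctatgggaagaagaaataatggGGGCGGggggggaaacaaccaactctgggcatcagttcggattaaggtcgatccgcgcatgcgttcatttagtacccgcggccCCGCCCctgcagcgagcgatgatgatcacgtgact
Bcl2, the gene with the lowest level, had 7 GC boxes, a GC content of 74.8% and 36 CpG dinucleotides, more than 97.4% of the 32851 mouse promoters in the same table. Bcl2l1, the gene with the highest level, had 0 GC boxes in this window and 0 in those of its other RefSeq starts, and 12 CpG dinucleotides here. Bax had 2 GC boxes and 14 CpG dinucleotides. Of the other promoters, Casp9 had 4 GC boxes, Bcl2l2 and Fas 1 each, and Bak1, Casp8 and Trp53 had 0. Over all 32851 promoters, 32.7% hold GGGCGG, 33.8% CCAAT, 12.4% TATAAA and 1.55% TGACGTCA in such a window, and the median number of CpG dinucleotides is 6. A match of letters does not show a site that is bound.

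In order of mean level the genes ran Bcl2l1, Bak1, Bcl2l2, Trp53, Bax, Casp9, Casp8, Fas and Bcl2. Bcl2l1 was 6.24-fold above Bak1 as a geometric mean over the 6 libraries, with no overlap of their values, and its level was above that of 82.7% of the genes tested. Bak1, Bcl2l2, Trp53, Bax and Casp9 formed a run from 4.07 FPKM for Bak1 to 2.08 FPKM for Casp9 in which each neighbour overlapped the next. Bak1 was above Bcl2l2 in 4 of the 6 libraries only, so these 2 genes were not ordered beyond their spread. Casp9 was above Casp8 in 6 of 6 libraries (2.70-fold) and Casp8 above Fas in 6 of 6 (3.13-fold), with no overlap of values in either pair. Fas was above Bcl2 in 6 of 6 libraries (2.75-fold), although the ranges of the 2 genes overlapped. These are levels per length of the gene model and not of the transcripts present, which may use other starts and ends. Testis RNA was extracted from whole tissue, in which fewer cells of a type and less RNA per cell cannot be told apart, and germ cells, Sertoli cells and interstitial cells all contribute to each value.

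**Figure D1:**
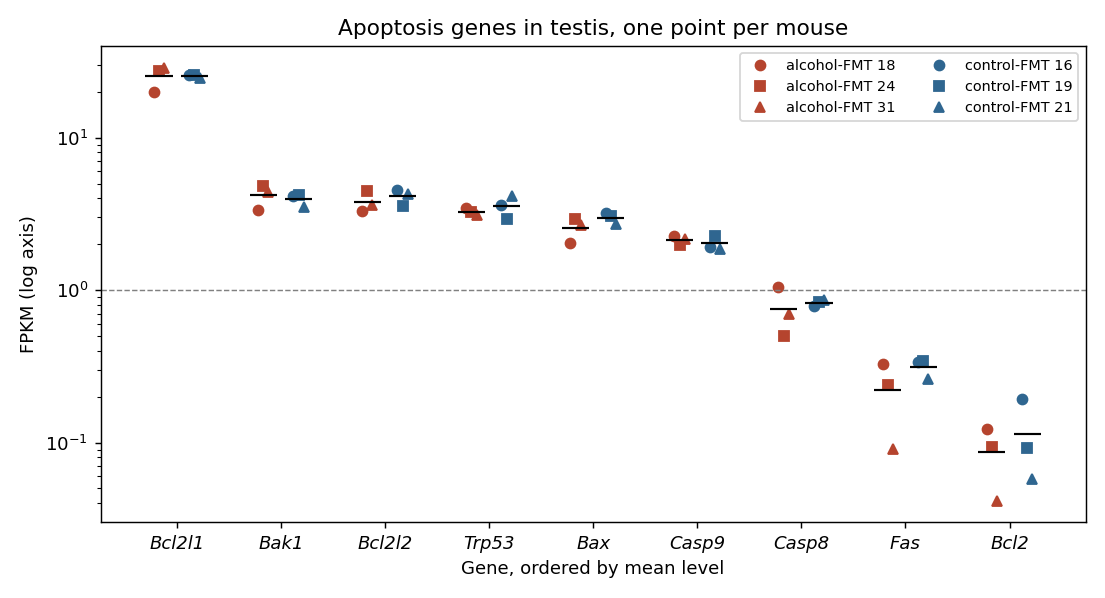
FPKM on a log axis of the 9 apoptosis genes in order of mean level, 1 point per mouse with alcohol-FMT mice (18, 24, 31) left of control-FMT mice (16, 19, 21), bars at the group means and a dashed line at 1 FPKM, the minimum for the test. Bcl2l1 lies at 20.0 to 28.8 FPKM, 5 genes lie between 1.86 and 4.80 FPKM, and Casp8, Fas and Bcl2 have means under the line.

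The anti-apoptotic genes did not differ detectably between the groups. Bcl2l1 encodes BCL-XL, which holds BAX and BAK1 inactive, and lies on the minus strand of chromosome 2 at 152780668 to 152831728 (GRCm38). It had 20.0, 27.5 and 28.8 FPKM in alcohol-FMT mice 18, 24 and 31, against 25.7, 25.6 and 24.7 FPKM in control-FMT mice 16, 19 and 21. The control-FMT mice lay within 1 FPKM of each other, and the alcohol-FMT mice lay on both sides of them, with mouse 18 lowest and mice 24 and 31 above all controls. The group means were 25.4 ± 4.77 FPKM in alcohol-FMT and 25.3 ± 0.515 FPKM in control-FMT testis (SD, n = 3 each). The log2 fold change was -0.01 (SE 0.133, 95% interval -0.32 to 0.30, limma adjusted p = 0.989). Without mouse 18 the log2 fold change of Bcl2l1 was 0.15 (SE 0.0592), with an unadjusted p = 0.0440 and a limma adjusted p = 0.273. That fit called 17.7% of the genes tested at an unadjusted p up to 0.05 (12.2% of the genes tested as higher in alcohol-FMT testis), so that a call there is common.

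Bcl2l2 encodes BCL-W, which mouse testes need to keep their germ cells in adult life, and lies on the plus strand of chromosome 14 at 54883377 to 54888234. It had 3.31, 4.48 and 3.64 FPKM in the alcohol-FMT mice, against 4.51, 3.54 and 4.30 FPKM in the control-FMT mice. The groups overlapped, with the lowest value again in mouse 18, and the log2 fold change was -0.09 (SE 0.121, 95% interval -0.38 to 0.19, limma adjusted p = 0.904). Bcl2, the founding anti-apoptotic gene of the family, lies on the minus strand of chromosome 1 at 106538178 to 106714274. It was read with 19, 16 and 7 fragments (0.123, 0.0938 and 0.0416 FPKM) in the alcohol-FMT mice, against 32, 15 and 9 fragments (0.193, 0.0914 and 0.0580 FPKM) in the control-FMT mice. Mouse 31 had the fewest fragments and control-FMT mouse 16 the most, and the groups overlapped. The summed fragments were 42 in alcohol-FMT and 56 in control-FMT testis, a ratio of 0.738 after scaling (exact 95% interval 0.482 to 1.12). Such intervals cover counting error only and leave out the spread between mice. For Bcl2 the spread within groups was 57.6%, against a counting error of 24.7%. The log2 fold change of Bcl2 was -0.04 (SE 0.0563, limma adjusted p = 0.904), taken from the fit with no minimum described with Casp8.

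The pore-forming genes were not called either. Bax lies on the minus strand of chromosome 7 at 45461697 to 45466898, and male mice that lack it are sterile with a block of spermatogenesis. It had 2.03, 2.93 and 2.66 FPKM in the alcohol-FMT mice, against 3.19, 3.08 and 2.70 FPKM in the control-FMT mice. Every alcohol-FMT mouse was below the control-FMT mean, but mouse 24 lay above control-FMT mouse 21, so the groups overlapped. The means were 2.54 ± 0.460 FPKM in alcohol-FMT and 2.99 ± 0.259 FPKM in control-FMT testis (SD, n = 3 each). Of the 9 genes Bax had the smallest unadjusted p in limma, 0.172, with a log2 fold change of -0.18 (SE 0.118, 95% interval -0.46 to 0.10, adjusted p = 0.795). Its 54 to 91 fragments per library gave a counting error of 11.3%, against a spread within groups of 13.5%.

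Bak1 lies on the minus strand of chromosome 17 at 27019810 to 27029009 and encodes the partner pore-former of BAX. It had 3.38, 4.80 and 4.39 FPKM in the alcohol-FMT mice, against 4.13, 4.22 and 3.53 FPKM in the control-FMT mice. Mouse 18 was again the lowest of all and mouse 24 the highest, and the log2 fold change was 0.06 (SE 0.123, 95% interval -0.23 to 0.35, limma adjusted p = 0.941). In the GENCODE M21 annotation 437 exon bases of Bak1 (18.2% of its exons) lie opposite exons of Ggnbp1, a testis gene on the other strand. Ggnbp1 had 82.4, 109 and 117 FPKM in the alcohol-FMT mice, against 96.7, 83.7 and 82.5 FPKM in the control-FMT mice, with a log2 fold change of 0.22 (limma adjusted p = 0.789). The use of strand in the counting is not given in the sources used here, so reads of Ggnbp1 in the shared exons cannot be told apart from those of Bak1, and the level of Bak1 is uncertain. Bcl2l2, Bax, Casp9 and Bcl2 share 1.81 to 13.3% of their exon bases with neighbours that were listed at 0 to 0.592 FPKM.

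The initiator caspases and the death receptor were also not called. Casp9, which the apoptosome activates after release of cytochrome c, lies on the plus strand of chromosome 4 at 141793612 to 141815976. It had 2.27, 1.96 and 2.18 FPKM in the alcohol-FMT mice, against 1.92, 2.28 and 1.86 FPKM in the control-FMT mice. The groups overlapped fully, and with a log2 fold change of 0.06 (SE 0.0927, 95% interval -0.16 to 0.27, limma adjusted p = 0.921) it had the smallest standard error of the 6 genes that passed the minimum. Casp8, Fas and Bcl2 were under a mean of 1 FPKM, and their tests come from a fit of all 35799 genes with a fragment in any library. Casp8, the initiator caspase of the death receptor pathway, lies on the plus strand of chromosome 1 at 58795374 to 58847503. It had 1.05, 0.501 and 0.696 FPKM in the alcohol-FMT mice, against 0.783, 0.830 and 0.857 FPKM in the control-FMT mice. The alcohol-FMT group held both the highest value (mouse 18) and the lowest (mouse 24), and the log2 fold change was -0.07 (SE 0.13, 95% interval -0.39 to 0.24, limma adjusted p = 0.917). Fas, the receptor that on germ cells can meet the ligand made in the testis, lies on the plus strand of chromosome 19 at 34290659 to 34327770. It was read with 10, 8 and 3 fragments (0.329, 0.238 and 0.0907 FPKM) in the alcohol-FMT mice, against 11, 11 and 8 fragments (0.337, 0.341 and 0.262 FPKM) in the control-FMT mice. The ranges overlapped through mouse 18, the ratio of summed fragments was 0.688 (exact 95% interval 0.375 to 1.24, from 21 in alcohol-FMT and 30 in control-FMT testis), and the log2 fold change was -0.11 (SE 0.0834, limma adjusted p = 0.853). The spread of Fas within groups (34.1%) was that of counting alone (34.3%).

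Trp53, the gene of p53, which in the testis is transcribed most in spermatocytes, lies on the plus strand of chromosome 11 at 69580359 to 69591873. It had 3.46, 3.24 and 3.11 FPKM in the alcohol-FMT mice, against 3.63, 2.91 and 4.13 FPKM in the control-FMT mice. The alcohol-FMT values lay inside the control-FMT range and were all below the control-FMT mean. The means were 3.27 ± 0.178 FPKM in alcohol-FMT and 3.56 ± 0.612 FPKM in control-FMT testis (SD, n = 3 each), with a log2 fold change of -0.09 (SE 0.113, 95% interval -0.35 to 0.18, limma adjusted p = 0.903).

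Over the 9 genes, 0 passed an adjusted p of 0.05 and 0 an unadjusted one, against 0% and 7.27% of the genes tested with the minimum (4.93% higher and 2.34% lower in alcohol-FMT testis), and 0% and 5.63% of all genes with a fragment (3.09% higher and 2.54% lower). The groups did not overlap for 0 of the 9 genes, against 13.1% of the genes tested and 10.2% of all with a fragment. The log2 fold changes were below 0 for 7 genes and above 0 for Bak1 and Casp9, with a median of -0.07. The median was 0.01 over the genes tested with the minimum and -0.0028 over all genes with a fragment. The unadjusted p-values were between 0.172 for Bax and 0.937 for Bcl2l1, and the limma adjusted ones between 0.795 and 0.989. Without mouse 18 the log2 fold change was -0.07 for Bax, 0.17 for Bak1, -0.02 for Bcl2l2, -0.12 for Trp53, 0.03 for Casp9, -0.19 for Casp8, -0.18 for Fas and -0.06 for Bcl2, and Bcl2l1 alone passed an unadjusted p of 0.05. A p that misses the threshold does not show that the levels were equal: of the 6 genes above the minimum, the interval reached furthest for Bax, to -0.46, and for Bak1, to 0.35.

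**Figure D2:**
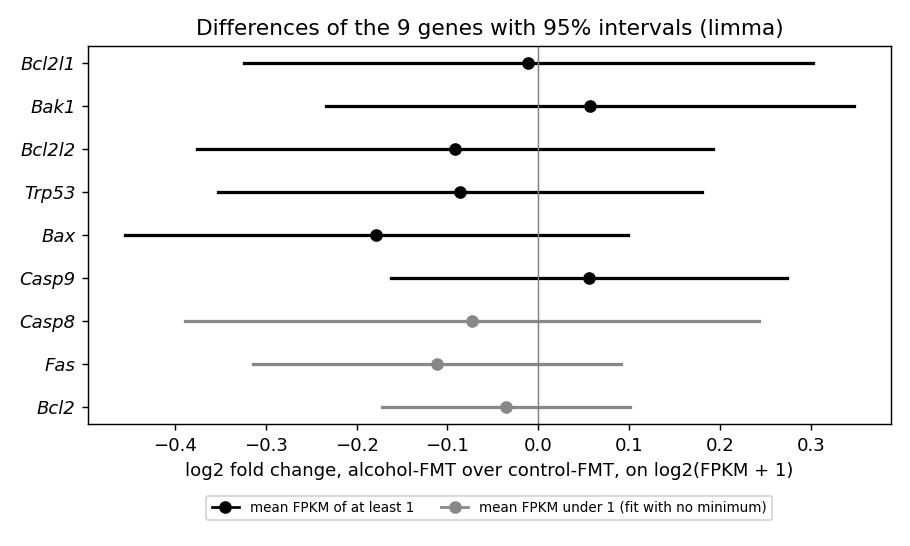
Log2 fold change (alcohol-FMT over control-FMT) on log2(FPKM + 1) with its 95% interval from limma for each of the 9 genes, black for the 6 genes averaging 1 FPKM or more and grey for the 3 below. Every interval includes 0, and the intervals of the 3 low genes are on a scale that understates their change.

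Ratios of 2 genes within a library do not depend on how that library was scaled, and the ratio of Bax to Bcl2 is in common use as a measure of the balance for and against apoptosis. The log2 ratio of Bax to Bcl2 was 4.05, 4.96 and 6.00 in alcohol-FMT mice 18, 24 and 31, against 4.05, 5.07 and 5.54 in control-FMT mice 16, 19 and 21. Both groups spanned nearly the same range, with means of 5.0 ± 0.977 in alcohol-FMT and 4.89 ± 0.764 in control-FMT testis (SD, n = 3 each). The ratio rested on few Bcl2 fragments, with a counting error of 0.297 to 0.570 per library on the log2 scale. The difference of the means was 0.12, and 0.59 without mouse 18. With Bcl2l1, the abundant anti-apoptotic gene, as the denominator, the log2 ratio of Bax was -3.30, -3.23 and -3.44 in the alcohol-FMT mice, against -3.01, -3.05 and -3.20 in the control-FMT mice. All alcohol-FMT mice were below all control-FMT mice, by 0.24 between the means, with a counting error of 0.154 to 0.20 per library. The log2 ratio of Bak1 to Bax was 0.73, 0.71 and 0.72 in the alcohol-FMT mice, against 0.37, 0.45 and 0.39 in the control-FMT mice. Here too the groups lay apart, by 0.32, but the SD among the alcohol-FMT mice, 0.0106, was smaller than the counting error of each value, 0.184 to 0.232, and Bak1 shares exon bases with Ggnbp1. These 2 were the only pairs of the 36 that the 9 genes form in which the groups lay apart (5.56%), and 2 of the 15 pairs of the 6 tested genes (13.3%), beside 12.9% of all 114375250 pairs of tested genes. A share near that of all pairs is not a result about these genes, and the ratios were given no test. Bcl2l1 transcripts per length exceeded those of Bcl2 by 133-fold to 692-fold in the 6 libraries.

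**Figure D3:**
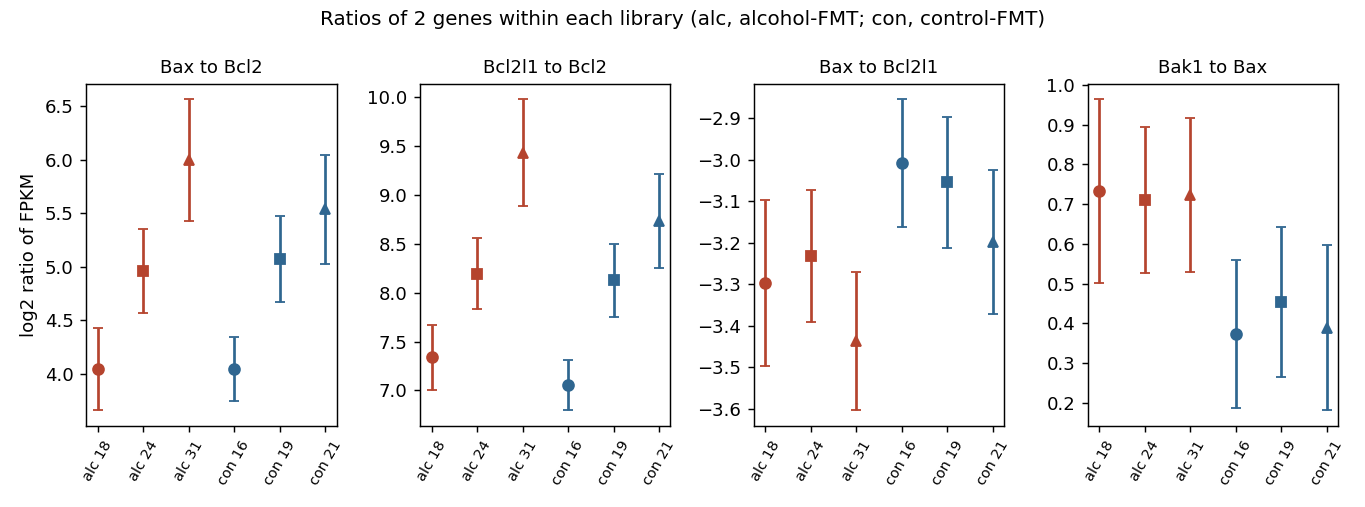
Log2 ratios of FPKM of 4 gene pairs in each library, alcohol-FMT mice left of control-FMT mice, with bars of 1 counting standard error on each side. Bax to Bcl2 and Bcl2l1 to Bcl2 overlap between the groups, and Bax to Bcl2l1 (lower in alcohol-FMT mice by 0.24) and Bak1 to Bax (higher by 0.32) do not.

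The wider apoptosis pathway, 93 genes in 11 lists that include the 9 genes, had 61 genes above the minimum, of which 0 were called higher and 1, Rac1, lower at an unadjusted p up to 0.05. That is 1.64%, beside 7.27% of all genes tested, and 0 were called at an adjusted p. The median log2 fold change of the 61 was -0.01. Among the anti-apoptotic genes (3 of 8 tested), Mcl1, another BCL-2 relative that restrains BAX and BAK1, was as abundant as Bcl2l1, at 26.2 ± 3.08 FPKM in alcohol-FMT and 25.4 ± 1.41 FPKM in control-FMT testis, with a log2 fold change of 0.04 (limma adjusted p = 0.953). Of the pore-formers, Bok had a log2 fold change of -0.08. The BH3-only genes, whose products start apoptosis by binding the other BCL-2 proteins, had 6 of 8 members tested and a median of 0.02. Bad had the smallest p of them, at 15.8 ± 1.18 FPKM in alcohol-FMT and 14.0 ± 1.08 FPKM in control-FMT testis (log2 fold change 0.17, limma adjusted p = 0.725), and Pmaip1 (Noxa) had a log2 fold change of -0.20.

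Downstream of the mitochondria, the apoptosome and release genes had 8 of 10 members tested, a median of 0.10, and 7 of the 8 above 0, with none called. Aifm1, a mitochondrial flavoprotein that can leave for the nucleus, had 2.47, 2.43 and 2.05 FPKM in the alcohol-FMT mice, against 1.93, 1.95 and 2.05 FPKM in the control-FMT mice. The groups lay apart by less than 0.01 FPKM, and the log2 fold change was 0.15 (SE 0.0872, limma adjusted p = 0.757). Htra2, a mitochondrial protease, had one of 0.14. The caspases (4 of 10 tested) had a median of 0.05, with Casp6, an executioner caspase, at 0.11 and Casp2 at -0.08. The death receptors, ligands and adaptors (4 of 10 tested) had a median of 0.01, with Tnfrsf1a, a TNF receptor gene, at -0.06 and Fadd, the adaptor between FAS and caspase-8, at 0.04. Fasl, the ligand of FAS, was read at 0.222 to 0.656 FPKM over the 6 libraries. The inhibitors of apoptosis (3 of 7 tested) had a median of 0.03, with Birc6 at -0.12 and Birc5 at 0.07, and the DNA cleavage and phosphatidylserine genes (3 of 4 tested) one of 0.02, with Xkr8, a scramblase gene, at 0.12 and Dffa, the inhibitor of the apoptotic nuclease, at -0.09.

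The p53 family and its regulators (9 of 12 tested) had a median of -0.06, with 8 of the 9 below 0 and none called. Atm, the kinase that activates p53 after DNA breaks, had a log2 fold change of -0.16 and Usp7, which removes ubiquitin from p53 and from its ligase MDM2, one of -0.11. The p53 target genes (14 of 19 tested, Bax and Mdm2 among them) had a median of -0.07, with 10 of the 14 below 0 and none called. The median over all genes tested was 0.01. Counts of signs, here and for the apoptosome and release genes, were given no test, and genes of a list share the same 6 libraries. Cdkn1a (p21), the p53 target that halts the cell cycle, had 2.90, 2.95 and 2.45 FPKM in the alcohol-FMT mice, against 2.42, 2.31 and 2.37 FPKM in the control-FMT mice. Its groups lay apart, higher in alcohol-FMT mice, with a log2 fold change of 0.16 (limma adjusted p = 0.745). Groups lay apart, in either direction, for 13.1% of all genes tested, so that alone is no result about Cdkn1a, nor about Aifm1 above. Trp53inp1, a p53 target that acts back on p53, had 3.0, 3.54 and 3.16 FPKM in the alcohol-FMT mice, against 3.53, 4.51 and 3.85 FPKM in the control-FMT mice, with a log2 fold change of -0.23 (SE 0.101, limma adjusted p = 0.689). Its groups overlapped by less than 0.01 FPKM. The 2 targets thus pointed in opposite directions, and neither passed.

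The engulfment genes, through which Sertoli cells clear dying germ cells, were all above the minimum (8 of 8), with a median of -0.10. Rac1, the GTPase that drives the cytoskeleton during engulfment and is active in most cell types, had 6.89, 6.23 and 6.16 FPKM in the alcohol-FMT mice, against 7.57, 7.40 and 7.19 FPKM in the control-FMT mice. All alcohol-FMT mice were below all control-FMT mice, with a log2 fold change of -0.18 (SE 0.0732), an unadjusted p = 0.0462 and a limma adjusted p = 0.687. It kept to that side of 0.05 without mouse 18 (unadjusted p = 0.0171) and in the other fits on 6 libraries, and in none of the 5 fits that left out another library. Tyro3, a receptor for the phosphatidylserine bridge, had a log2 fold change of -0.14 and was not called.

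**Figure D4:**
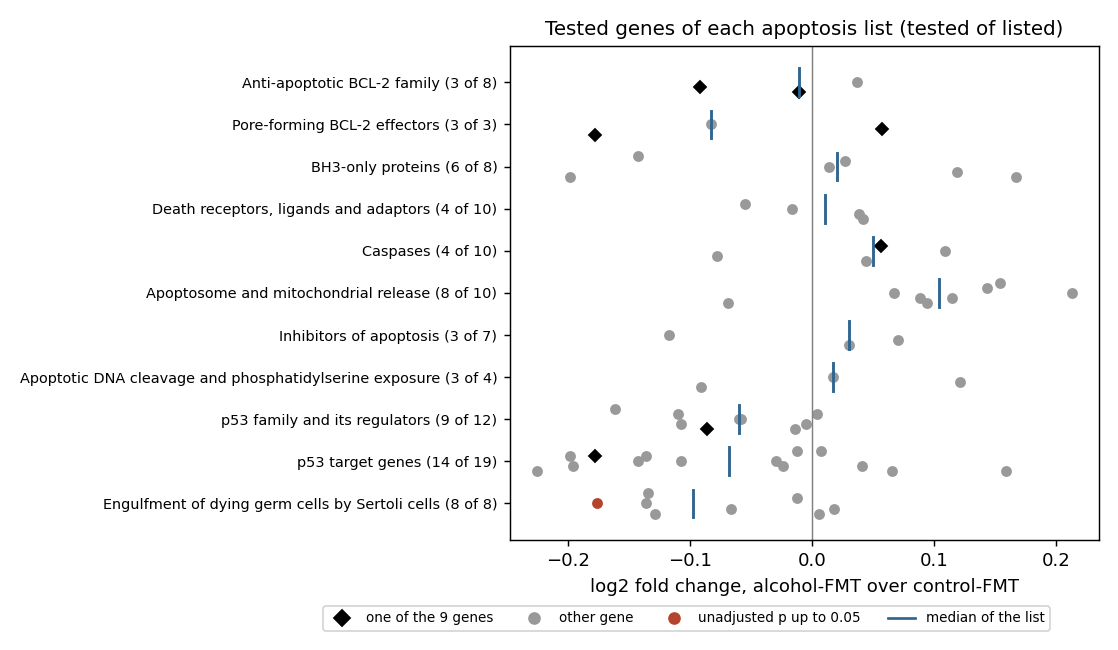
Log2 fold change (alcohol-FMT over control-FMT) of each tested gene of the 11 apoptosis lists, with black diamonds for the 9 genes, a red point for the gene at an unadjusted p up to 0.05 (Rac1) and blue bars at the list medians. List medians lie between -0.10 and 0.10.

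Mouse 18 had the lowest value of all 6 mice for 4 of the 9 genes, Bcl2l1, Bak1, Bcl2l2 and Bax, and the highest for Casp8. Bcl2, also of the BCL-2 family, was lowest in mouse 31. The share of all genes tested that were lowest in mouse 18 was not counted, so these 4 are no result about the family. Of the genes of the wider lists that were called without this mouse, 5 were higher and 4 lower in alcohol-FMT testis at an unadjusted p up to 0.05. These 9 of 61 (14.8%) are a smaller share than the 17.7% of the genes tested in the same fit, so the count is no result about the pathway, and Diablo, Cyct and Ccng1 were named because of these values. The higher ones were Bcl2l1, Bad, Xkr8, Diablo and Cyct. Diablo, whose product is released from mitochondria and blocks inhibitors of apoptosis, had 4.66, 7.51 and 7.68 FPKM in alcohol-FMT mice 18, 24 and 31, against 6.36, 4.59 and 5.54 FPKM in control-FMT mice 16, 19 and 21. Cyct, the testis form of cytochrome c, had 42.3, 77.7 and 75.6 FPKM in the alcohol-FMT mice, against 65.7, 54.8 and 54.3 FPKM in the control-FMT mice. Both genes were low in mouse 18, high in mice 24 and 31 and intermediate in control-FMT mouse 16. Without mouse 18 the log2 fold change was 0.41 for Diablo and 0.40 for Cyct, with limma adjusted p = 0.187 for Diablo and 0.148 for Cyct. The lower ones without mouse 18 were Rac1, Atm, Ccng1 and Usp7, with log2 fold changes of -0.22, -0.24, -0.29 and -0.16.

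Some germ cell markers were at their extreme in the same mouse. Of the 8 spermatocyte markers, 4 were highest in mouse 18 (Sycp1, Sycp3, Hormad1 and Tdrd5), 1 was lowest there (Spag6), and 3 lay between. Sycp3, a meiotic chromosome axis gene, had 73.1, 51.2 and 51.1 FPKM in the alcohol-FMT mice, against 50.9, 54.1 and 60.5 FPKM in the control-FMT mice. Spag6, a gene of the sperm flagellum, had 31.1, 41.7 and 42.6 FPKM in the alcohol-FMT mice, against 36.5, 35.3 and 33.9 FPKM in the control-FMT mice. The summed FPKM of the list was 453, 384 and 373 in the alcohol-FMT mice, against 379, 399 and 412 in the control-FMT mice, with mouse 18 the highest. None of the 8 was at 0 in a library, and 0 were called between the groups.

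The elongating spermatid markers gave no common direction in mouse 18, with 1 of 7 highest there (Akap4), 1 lowest (Tnp1) and 5 between. Tnp1, a transition protein gene, had 654, 2248 and 2849 FPKM in the alcohol-FMT mice, against 1749, 932 and 760 FPKM in the control-FMT mice. Akap4, a gene of the fibrous sheath, had 903, 636 and 703 FPKM in the alcohol-FMT mice, against 664, 753 and 706 FPKM in the control-FMT mice. The summed FPKM of this list was 19287, 16862 and 24509 in the alcohol-FMT mice, against 19135, 17834 and 16597 in the control-FMT mice. Most of the sum came from Prm1, Prm2 and Tnp2, at 5936, 5142 and 4592 FPKM in mouse 18, so it does not speak for spermatid markers as a class. The part of these cells in the levels of Bcl2l1, Bak1, Bcl2l2, Bax, Diablo and Cyct was not tested.

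**Figure D5:**
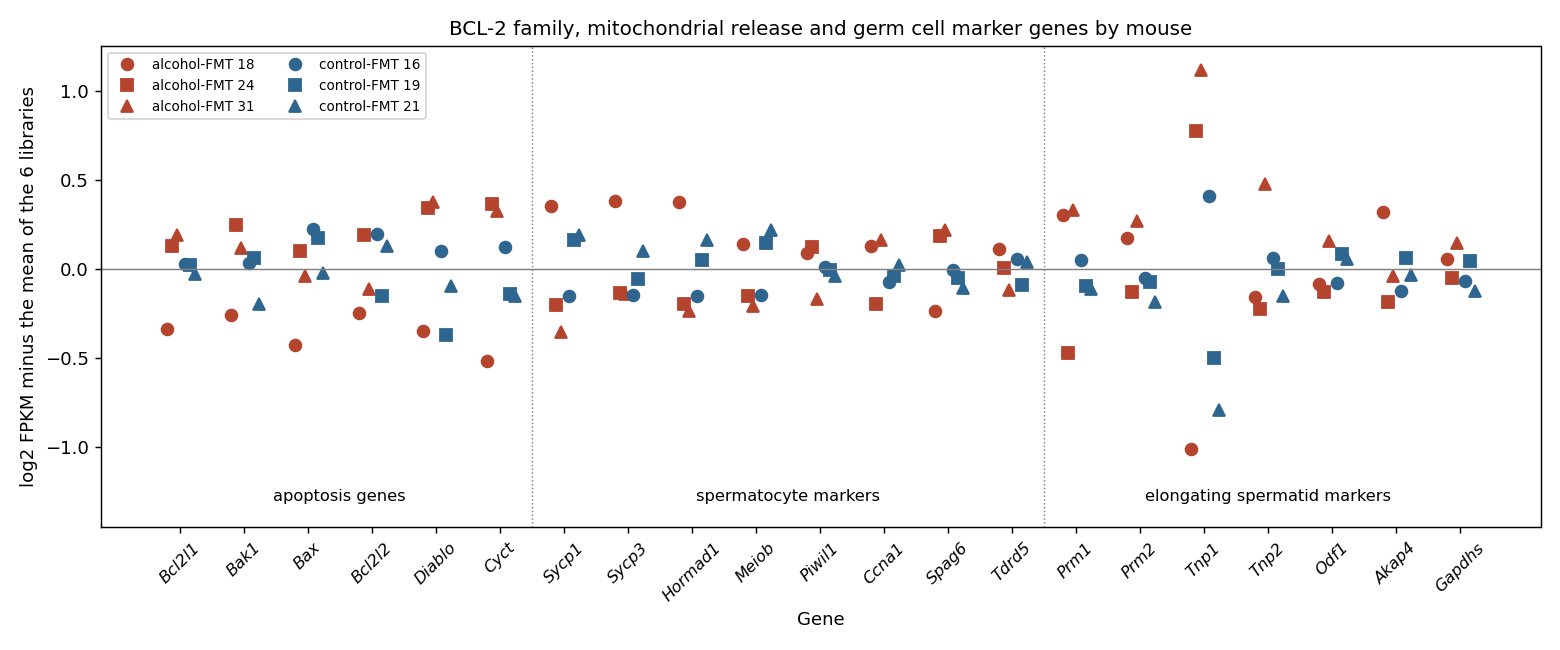
Log2 FPKM minus the mean of the 6 libraries for 4 BCL-2 family genes, 2 mitochondrial release genes, all 8 spermatocyte markers and all 7 elongating spermatid markers, 1 point per mouse with alcohol-FMT mice left of control-FMT mice. Alcohol-FMT mouse 18 is lowest for Bcl2l1, Bak1, Bcl2l2, Bax and Cyct, highest for 4 and lowest for 1 of the spermatocyte markers, and highest for 1 and lowest for 1 of the spermatid markers.

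Of the other cells that testis RNA can hold, Sertoli cell markers summed to 437 to 503 FPKM in alcohol-FMT and 447 to 503 FPKM in control-FMT testis, and Leydig cell markers to 331 to 455 FPKM in alcohol-FMT and 405 to 521 FPKM in control-FMT testis. Clu alone gave 239 to 299 FPKM of the Sertoli sum, and Insl3 alone 151 to 339 FPKM of the Leydig sum. Neither sum thus speaks for its markers as a class. Of the 11 Sertoli markers, Sox9, Wt1 and Fshr were lower in every alcohol-FMT mouse than in every control-FMT mouse, and the others overlapped. Groups lay apart for 13.1% of all genes tested. The median log2 fold change was -0.10 for the Sertoli markers and -0.12 for the Leydig markers, and 0 were called in either list. Spermatogonial markers summed to 40.2 to 46.7 FPKM in alcohol-FMT and 39.0 to 44.5 FPKM in control-FMT testis, and round spermatid markers to 615 to 634 FPKM in alcohol-FMT and 591 to 629 FPKM in control-FMT testis. The markers of every germ cell stage were thus present in every library, as a testis label requires. Macrophage markers summed to 28.3 to 30.1 FPKM in alcohol-FMT and 28.3 to 33.5 FPKM in control-FMT testis, and lymphocyte markers, whose cells carry Fas and Bcl2 in many tissues, to 2.85 to 3.58 FPKM in alcohol-FMT and 2.95 to 3.55 FPKM in control-FMT testis. Blood cell markers summed to 13.0 to 20.8 FPKM in alcohol-FMT and 20.3 to 23.0 FPKM in control-FMT testis, with Hbb-bs, a haemoglobin gene, called lower at an unadjusted p = 0.0218 (log2 fold change -0.61). Hba-a2, a further haemoglobin gene under the minimum, was lower at an unadjusted p = 0.0470, Cd8a, a T cell gene under the minimum, at 0.0214, and Tssk1, a kinase gene of spermatids, was higher at 0.0461 (log2 fold change 0.15). None of these passed adjustment in limma. Epididymal markers summed to 1.53, 0.961 and 5.65 FPKM in alcohol-FMT mice 18, 24 and 31, against 1.46, 1.47 and 1.94 FPKM in control-FMT mice 16, 19 and 21, with 6 of the 7 at 0 in at least 1 library. Mouse 31 stood apart for this list, and the log2 ratio of the mean sums was 0.74 with it and -0.38 without it. The part of these cells in the levels of Fas, Bcl2 and Casp8 was not tested.

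For Trp53 and Bax, the genes whose levels over the 6 libraries were most like theirs are given as a description. For Trp53 these were Bcar3 (Pearson's r 0.983, Spearman's rho 1), Hprt (r 0.978, rho 1) and Gas2 (r 0.977, rho 0.943), and 68 genes had r above 0.9. For Bax they were Pak4 (r 0.984, rho 0.943), Dab2ip (r 0.983, rho 1) and AU022252 (r 0.980, rho 0.943), and 167 genes had r above 0.9. With 6 libraries and 15206 genes such values are common, and the points of each pair share libraries and scaling.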

How the data were processed

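Testis RNA of 3 alcohol-FMT and 3 control-FMT mice was sequenced by the authors, 1 library per mouse, from an Illumina TruSeq kit. The authors deposited FPKM for 54532 Ensembl genes, with gene lengths, on GRCm38. TopHat2 is the aligner of the methods, while HISAT2 2.0.5, with mm10 and mm8, stands in the submitters' processing notes, and the counter and its use of strand are not given in the sources used here. All value columns were used. FPKM times gene length came out as whole fragments (100% of values, tolerance 0.01).

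The test was limma 3.58.1 (R 4.3.3) on log2(FPKM + 1), fitted with a trend of variance on level to genes averaging 1 FPKM or more, 3 against 3 libraries, no covariate, threshold 0.05, and Benjamini-Hochberg adjustment. Genes under the minimum were taken from the fit with no minimum. The DESeq2 test of the methods was not run, since the deposited unit is FPKM, and limma-voom on the fragments read back served as the alternative on counts. The libraries came from separate mice. The script was tested on simulated data. Tables and figures used Python 3.11.15, pandas 2.3.3, NumPy 2.4.6, SciPy 1.17.1 and matplotlib 3.10.9. Exact intervals for ratios of summed fragments are at 95% (Clopper-Pearson).

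The 9 genes, the pathway lists, the cell type markers, the tests and the alternatives were chosen with earlier results of these data known. The text names all 9 genes, from each pathway list the 2 tested genes with the smallest p that are not among the 9, every gene of these lists called, and for Trp53 and Bax the 3 protein-coding genes with the highest Pearson's r. Fasl, Ccng1, Cyct, Diablo, Mdm2, Ggnbp1 and single germ cell, Sertoli cell, Leydig cell, T cell and blood markers are named outside this rule, after their values were seen. Promoters are from RefSeq (GRCm38.p6), matched by symbol for 9 of 9 genes. Positions and lengths match GENCODE M21 for 8 of the 9 genes, and Fas has another exon length there. The alternatives were limma-voom on the fragments, library totals, removal of the trend against gene length, a pseudocount of 0.1, no minimum, a minimum of 0.5, a robust variance prior, and leaving out each library.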

Additional observations from a re-analysis of the deposited data

How the results depend on the processing

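Of 112 values of the 9 genes under the alternatives, 106 kept their direction and their side of the threshold and 6 changed sign, all 6 on leaving out a library. Bcl2l1 was at 0.15 without alcohol-FMT mouse 18 (range over the libraries left out -0.11 to 0.15), Bak1 at -0.028 without alcohol-FMT mouse 24 and -0.0070 without control-FMT mouse 21 (-0.028 to 0.17), Trp53 at 0.0034 without control-FMT mouse 21 (-0.19 to 0.0034), Casp8 at 0.031 without alcohol-FMT mouse 24 (-0.19 to 0.031) and Bcl2 at 0.015 without control-FMT mouse 16 (-0.072 to 0.015), all as log2 fold changes. The cause was not tested. On leaving out a library, Bax ranged over -0.26 to -0.07, Bcl2l2 -0.19 to -0.02, Fas -0.18 to -0.03 and Casp9 0.02 to 0.12. The low genes moved with the test and the pseudocount, without a call: Fas was at -0.66 with limma-voom and -0.44 with a pseudocount of 0.1, Bcl2 at -0.38 and -0.18, and Casp8 at -0.21 and -0.17. The difference in log2 Bax to Bcl2 ranged over -0.38 to 0.59.

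On leaving out a library, 0 to 1 of the 9 genes passed an unadjusted p of 0.05 (Bcl2l1, without mouse 18), 0 to 5 pathway genes were called higher and 0 to 4 lower, and over all genes 0 to 2 passed an adjusted p (Slc41a3 and Gm25144, without alcohol-FMT mouse 31), 411 to 1851 were higher and 223 to 846 lower, with both of the highest counts without mouse 18. With library totals 449 genes were higher, and with no minimum 909 were lower, of more genes tested. With limma-voom and with library totals 2 pathway genes were lower, Rac1 and Trp53inp1. No adjusted call of any of the 9 genes was made under any alternative. No paired analysis was possible because the groups share no replicate numbers. Depth limits Fas above all, with 3 to 11 fragments per library. Bcl2 had 7 to 32 fragments per library, and its spread within groups (57.6%) was larger than its counting error (24.7%).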
